A study of Mus musculus with 4 samples.

Results

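The genes described here are 10 members of the ephrin, Eph receptor, semaphorin and plexin families: the ephrins Efnb1 and Efnb2, the Eph receptors Ephb4 and Ephb6, the semaphorins Sema4a, Sema4b, Sema4d and Sema7a, and the plexins Plxnb2 and Plxnd1. They were read through all 20 probe sets that the platform annotation gives to 1 of these symbols alone, out of 45101 probe sets and 18194 named genes on the array. All 10 genes were found, and no probe set shared between several genes carried a member. RNA came from 4 sorted populations of B cells of adult C57BL6/J wild type mice, each measured on 1 Affymetrix array from a pool of 3 to 5 animals. Germinal centre (GC) B cells were B220+PNA+Fas+ and naive B cells B220+PNA-Fas-. The peripheral lymph node (pLN) samples came from mice immunised with the antigen TNP-KLH (adjuvant: incomplete Freund's), and the Peyer's patch (PP) samples from mice that had received no treatment. Tissue and immunisation therefore cannot be told apart. With pooled animals and 1 array a group, the number of arrays limits every value.

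Ephrins of the B class are transmembrane ligands of Eph receptor tyrosine kinases on neighbouring cells. Contact can signal into both cells and changes adhesion and movement. Semaphorins are secreted or membrane-bound ligands, and their main receptors, the plexins, carry a cytoplasmic domain that switches off small GTPases of the Ras family. In the GC, ephrin-B1 and plexin-B2 on B cells are known from other work to meet partners on T follicular helper cells, among them EphB6 and Sema4C. Semaphorins are known to act on immune cells through CD72, Tim-2 and integrins.

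Signals were scaled to a common trimmed mean on each array. The detection level was the 90th percentile of probe sets for genes of other tissues. It was 85.3 for GC and 91.1 for naive cells in pLN, 140 and 213 in PP, and between 7559 and 9376 genes lay above it. Fas, a sort marker, had a GC-naive log2 fold of 3.29 ± 0.38 (mean of both tissues ± SE, limma adjusted p = 7.58e-06), and Ptprc, which encodes B220, differed by -0.20 ± 0.39 and was not called (limma adjusted p = 0.689), although its second probe set above the level gave 2.52. All 7 measured B cell markers were above the level on every array. The 3' to 5' ratio of the Gapdh control probe sets, a sign of RNA integrity, was 1.48 and 1.67 on the GC arrays of pLN and PP but 18.7 and 96.4 on the naive arrays. It moved with cell type, and its part in the GC-naive differences below was not tested. The summed signal of 12 macrophage markers was 3396 and 4526 on the GC arrays and 1262 and 1491 on the naive arrays of pLN and PP, and that of 8 plasma cell markers was 22255 and 28691 against 11310 and 8739. Apoe carried the macrophage difference: the other 11 markers summed to 868 and 965 against 958 and 999. Without Jchain and Mzb1 the other 6 plasma cell markers summed to 7297 in GC and 7997 in naive cells of pLN, and to 12939 and 7827 in PP, so that the direction in pLN turned. The summed signal of 12 gut epithelium markers was 580 in GC and 1447 in naive cells of pLN, and 2300 and 5136 in PP, and so was highest on naive PP. The part of such cells in the member results was not tested. Of 11 T cell markers between 1 and 6 were above the level on an array, and their summed signals of 843 to 1625 did not separate the cell types. Cd3d, Cd3e and Cd3g read 236, 244 and 204 on GC PP, above the level, and 43.2, 74.1 and 12.9 on naive PP, below it. In PP Cd8a went the other way, at 273 in GC and 388 in naive cells. Of 7 T follicular helper markers, 5 were below the level on every array. Tox2 read 244 and 5080 on the GC arrays of pLN and PP and 6.70 and 13.8 on the naive arrays. Cxcr5 went the other way, at 3506 and 2651 against 9853 and 17574. The part of T cells in the member results was not tested. In these bulk samples, fewer cells of a type and less RNA per cell cannot be told apart.

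Plxnb2, Efnb1 and Sema7a were higher in GC cells than in naive cells of both tissues. Sema4b and Sema4d were bright on all 4 arrays and did not pass the test, and Sema4a passed the level in naive pLN alone. Efnb2, Ephb4, Ephb6 and Plxnd1 were below the level on all 4 arrays in every probe set. A gene was tested if both GC arrays, or both naive arrays, exceeded the level, which left 5 of the 10 members. Of these 5, 3 were called higher in GC cells, 0 were called lower and 2 were not called, by limma with the tissue as a block and an adjusted p under 0.05. Among all 9230 genes tested, 49.7% were called, 25.4% higher and 24.3% lower, so a call was common. Plxnb2 and Efnb1 passed the filter through the GC arrays alone, which favours genes that are higher there, so these counts support nothing about the members. With an array left out the fit had no block, and a gene's own error came from the 2 arrays of the complete cell type alone. Calls lost or gained in such fits, here and below, thus mix a changed error with a changed fold. With naive PP left out, the array with the strongest 3' bias, the fold was 0.85 for Sema4b and 0.45 for Sema4d.

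**Figure D1:**
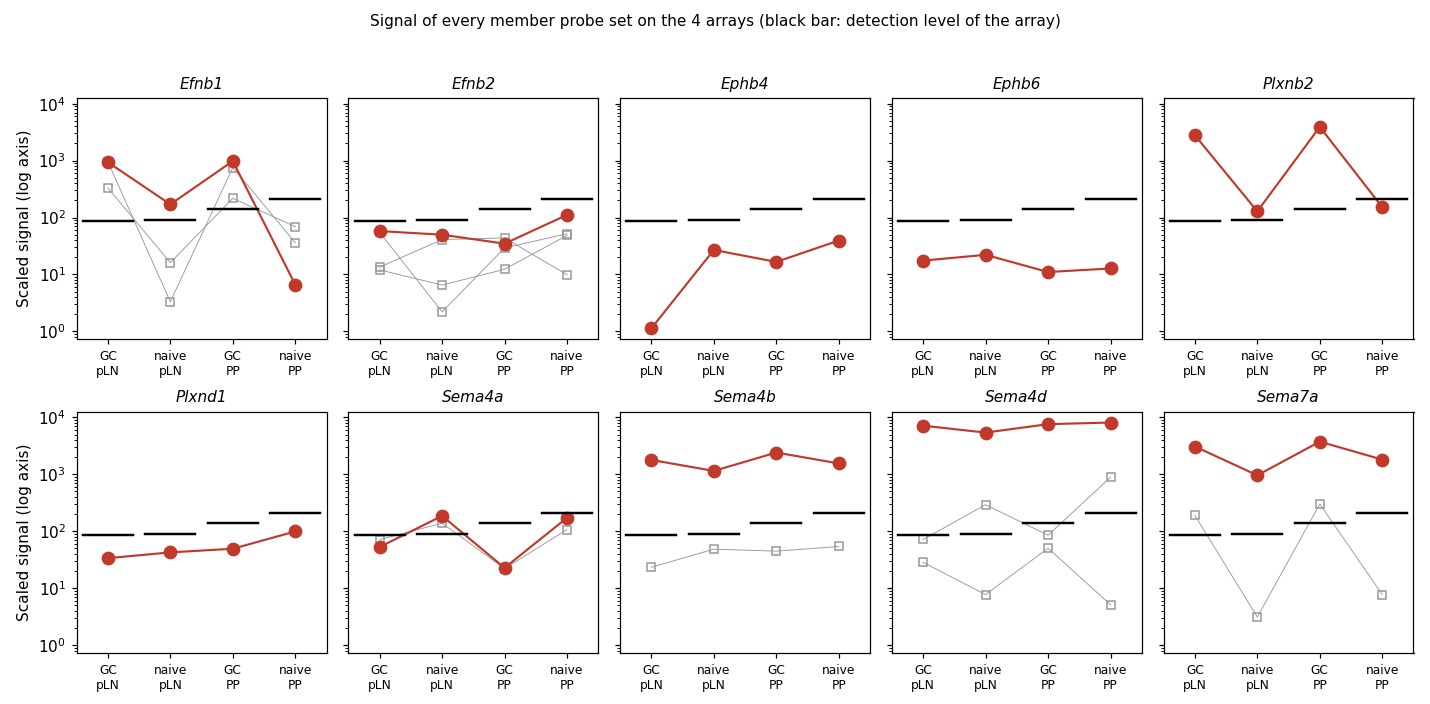
Scaled signal (log axis) of each of the 20 probe sets on the 4 arrays, 1 panel a gene; red circles mark the probe set that represents the gene, grey squares the others, lines join the readings of 1 probe set, and black bars are each array's detection level. Plxnb2, Efnb1 and Sema7a read higher on both GC arrays than on both naive arrays, whereas every reading of Efnb2, Ephb4, Ephb6 and Plxnd1 lies under the bars.

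Among the ligands of Eph receptors, Efnb1 encodes ephrin-B1. Its brightest probe set read 938 in GC and 170 in naive cells of pLN, and 981 in GC and 6.58 in naive cells of PP. Both GC readings were far above both naive readings, and the naive PP reading was below its level. The log2 fold was 3.86 ± 0.58 (limma adjusted p = 7.86e-05), higher in GC cells of 2 of 2 tissues. With the dim naive PP signal set at its level, GC cells held at least 5.03-fold more Efnb1 signal, and the fitted log2 fold was 2.23. Without the naive PP array the fold was 2.38.

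The other 2 Efnb1 probe sets pointed the same way. One read 958 and 756 on the GC arrays of pLN and PP against 3.30 and 36.0 on the naive arrays. The last read 331 and 218 against 16.1 and 69.0. All 6 GC readings of Efnb1 were above the level and 5 of the 6 naive readings were below it. Fitted over all 19318 probe sets above the level, of which 54.1% were called and 35.3% called higher, all 3 probe sets were called higher in GC cells, with log2 folds of 4.70 ± 0.49, 3.86 ± 0.51 and 2.40 ± 0.51. All 3 entered that fit through the GC arrays alone, which favours a higher call, so the 3 calls add no support. The dimmest of the 3 lost its call with signals under the level set to it (0.85, limma adjusted p = 0.105). Probe sets of 1 gene read the same RNA extract and are not replicates.

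Efnb2, the ephrin-B2 gene best known from arteries, gave no signal above the level in any of its 4 probe sets. The brightest read 57.7 in GC and 49.9 in naive cells of pLN, and 34.7 in GC and 111 in naive cells of PP, and the other 3 ranged from 2.20 to 54.9. All 16 readings were below the level of their array. Efnb2 was not detectable at the sensitivity of these arrays.

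The Eph receptors of the B class were equally dim. Ephb4, the ephrin-B2 receptor known from veins, read 1.13 in GC and 26.9 in naive cells of pLN, and 16.6 in GC and 39.4 in naive cells of PP. Ephb6, a receptor whose kinase domain is catalytically inactive, read 17.5, 22.1, 11.0 and 12.7 in the same order of arrays. Each had 1 probe set, and all 8 readings were below the level. As a check on vessel cells, which are a known source of Efnb2 and Ephb4, 13 of 14 endothelial markers were below the level on every array, among them Cdh5, Kdr, Tek and Tie1. The exception was Pecam1, which read 332 and 209 on the GC arrays of pLN and PP. It read 16.9 and 83.1 on the naive arrays, below the level, and was called higher in GC cells (2.25 ± 0.57, limma adjusted p = 0.00387). Pecam1 entered the test through the GC arrays alone, which favours a higher call. The part of vessel cells in the member results was not tested. The summed endothelial signal ranged from 408 to 748 over the 4 arrays.

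Among the semaphorins, Sema7a encodes a membrane-anchored protein that binds integrin beta-1 receptors and plexin-C1. Its brightest probe set read 3083 in GC and 961 in naive cells of pLN, and 3752 in GC and 1814 in naive cells of PP. Both GC arrays were above both naive arrays, with every reading well over the level. The ratio over the 2 tissues was 2.58-fold, a log2 fold of 1.35 ± 0.38 (limma adjusted p = 0.00812), higher in GC cells in 2 of 2 tissues. A second probe set read 190 and 302 on the GC arrays of pLN and PP but 3.10 and 7.72 on the naive arrays, and was also called (3.49 ± 0.51). It entered that fit through the GC arrays alone, which favours a higher call. With its dim signals set at the level that second probe set was not called (0.70, limma adjusted p = 0.2). The gene's call was lost without either GC array, where the error came from the 2 naive arrays alone. The fold was 1.49 without GC pLN, 1.21 without GC PP, 0.90 without naive pLN and 1.80 without naive PP. With the mean of all probe sets it was 2.42 and called.

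Sema4d encodes CD100, a transmembrane semaphorin that binds plexin-B1 and, on lymphocytes, CD72. Its brightest probe set read 7160 in GC and 5417 in naive cells of pLN, and 7612 in GC and 8135 in naive cells of PP. The groups overlapped: GC cells were higher in pLN (log2 fold 0.40) and lower in PP (-0.10). The mean fold of 0.15 ± 0.43 was not called (limma adjusted p = 0.786). Quantile normalization (0.95, limma adjusted p = 0.00594) and cyclic loess (0.92, limma adjusted p = 0.0276) gave a call in the higher direction. The fold was 0.45 without naive PP and -0.14 without naive pLN.

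A second Sema4d probe set gave the opposite picture, with 71.6 and 85.2 on the GC arrays of pLN and PP and 292 and 888 on the naive arrays. Both GC readings were below the level and both naive readings above it. At the level of probe sets it was called lower in GC cells (-2.47 ± 0.47, limma adjusted p = 2.67e-05), or at least 4.67-fold lower with the GC signals at the level, where 18.9% of all probe sets were called lower. It entered that fit through the naive arrays alone, which favours a lower call. The last Sema4d probe set read from 5.13 to 50.3 and was below the level throughout. The 2 measured probe sets thus lay 2.62 apart on the log2 scale. Such a spread was not rare: of 4194 genes with more than 1 probe set tested, 23.7% had a range at least as wide, 46.8% had folds of both signs and 11.3% had calls in both directions. The corresponding ranges were 2.29 for Efnb1 and 2.14 for Sema7a, whose probe sets all pointed one way, against a median of 1.59.

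Sema4b, a transmembrane semaphorin of the same class as Sema4d, read 1790 in GC and 1148 in naive cells of pLN, and 2415 in GC and 1554 in naive cells of PP. GC cells read higher within each tissue, by a log2 difference of 0.63 in both, and the groups did not overlap. The fold of 0.63 ± 0.37 was not called (limma adjusted p = 0.169), and was 0.85 without naive PP. Its other probe set read 23.3 to 53.9 and was below the level on all 4 arrays.

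Sema4a, a costimulatory semaphorin that binds Tim-2 on T cells and plexins, ran the other way. Its brightest probe set read 52.8 in GC and 186 in naive cells of pLN, and 22.7 in GC and 172 in naive cells of PP, and the second read 71.2, 138, 22.1 and 107. In both probe sets both naive arrays read higher than both GC arrays. Only the naive pLN readings were above their level, so Sema4a was not tested. In pLN the log2 fold of the brightest probe set was -1.53. It was called lower in GC cells with no filter on dim genes.

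Plxnb2 encodes plexin-B2, a receptor of class 4 semaphorins. Its fitted fold was above that of Efnb1, but with a pseudocount of 1 it was below it (4.56 against 4.74). Its only probe set read 2792 in GC and 128 in naive cells of pLN, and 3913 in GC and 152 in naive cells of PP. The GC readings were more than an order of magnitude above the naive readings in each tissue. The naive pLN reading was above its level and the naive PP reading below it. The log2 fold was 4.40 ± 0.40 (limma adjusted p = 6.72e-07), or at least 20.0-fold with the naive PP signal at its level, higher in GC cells in 2 of 2 tissues. Within tissues the log2 fold was 4.27 in pLN and 4.53 in PP, a gap smaller than its SE. The call held in every alternative in which it was tested, with folds from 4.0 to 4.64. With 1 probe set, no second reading bears on the 3' bias for Plxnb2.

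Plxnd1, a receptor of Sema3e and Sema4a, read 33.6 in GC and 42.5 in naive cells of pLN, and 49.2 in GC and 99.1 in naive cells of PP. All were below the level, and it was not tested.

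**Figure D2:**
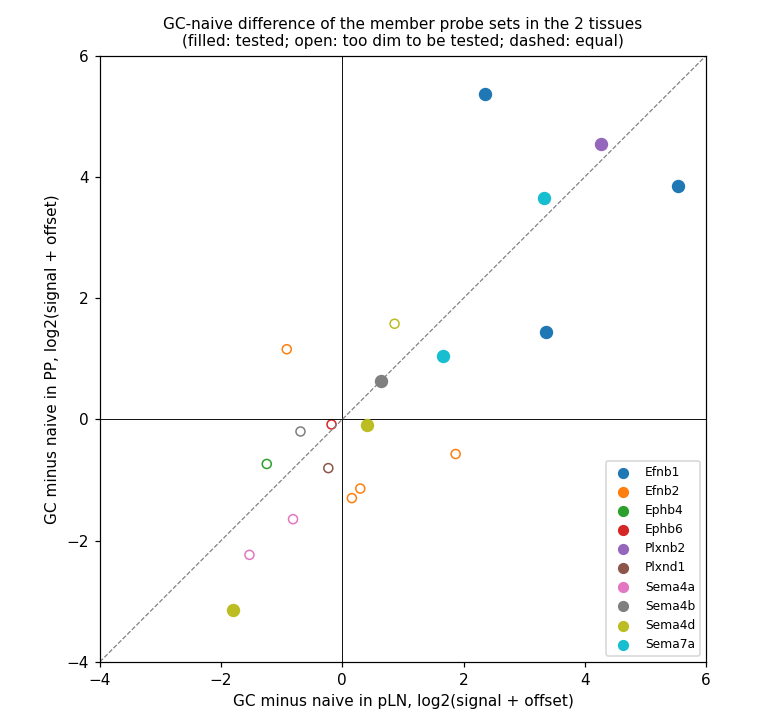
GC minus naive difference on the log2(signal + offset) scale in pLN (x axis) and in PP (y axis) for the 20 probe sets, coloured by gene; filled points were tested, open points were too dim. All 3 Efnb1 probe sets, both of Sema7a and that of Plxnb2 lie above 0 in both tissues, while 1 tested Sema4d probe set lies near 0 and the other below 0 in both.

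**Figure D3:**
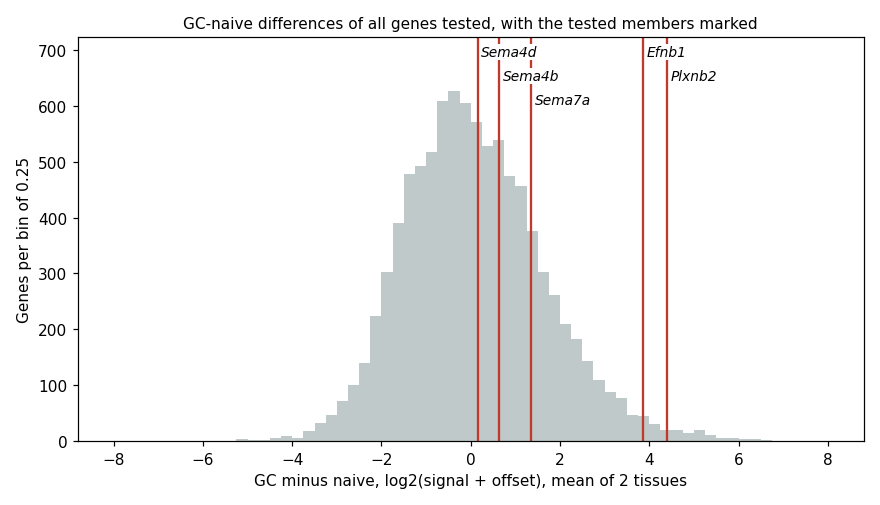
Number of genes per bin of 0.25 of the GC minus naive log2 difference, over the 9230 genes tested, with red lines at the 5 tested members. Plxnb2 and Efnb1, which entered the test through the GC arrays, lie in the upper tail, Sema7a on the upper slope, and Sema4b and Sema4d near the centre.

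The 3 genes called higher in GC cells are shown with their RefSeq promoter windows (GRCm38.p6, 250 bases before to 50 after an annotated start, 5' to 3' on the strand of the gene). Capitals mark matches, on either strand, to 8 short motifs: PU.1 (GAGGAAGT), E2A (CAGCTG), E-box (CACGTG), octamer (ATGCAAAT), the GC box (GGGCGG), the TATA box (TATAAA), E2F (TTTCCCGC) and the CCAAT box (CCAAT).
Efnb1, chrX:99135811-99136110, plus strand: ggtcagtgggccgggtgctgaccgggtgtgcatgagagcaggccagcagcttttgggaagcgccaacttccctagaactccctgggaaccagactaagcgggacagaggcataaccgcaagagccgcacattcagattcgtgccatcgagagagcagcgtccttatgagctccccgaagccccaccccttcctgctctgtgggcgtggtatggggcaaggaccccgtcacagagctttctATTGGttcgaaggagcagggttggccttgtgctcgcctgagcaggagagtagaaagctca
Plxnb2, chr15:89173902-89174201, minus strand: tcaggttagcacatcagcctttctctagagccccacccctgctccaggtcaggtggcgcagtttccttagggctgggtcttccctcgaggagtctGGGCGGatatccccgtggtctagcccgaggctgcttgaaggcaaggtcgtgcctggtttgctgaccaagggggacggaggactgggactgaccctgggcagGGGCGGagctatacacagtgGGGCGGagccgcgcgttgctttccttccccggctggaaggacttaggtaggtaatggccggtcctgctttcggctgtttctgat
Plxnb2, second start, chr15:89180739-89181038, minus strand: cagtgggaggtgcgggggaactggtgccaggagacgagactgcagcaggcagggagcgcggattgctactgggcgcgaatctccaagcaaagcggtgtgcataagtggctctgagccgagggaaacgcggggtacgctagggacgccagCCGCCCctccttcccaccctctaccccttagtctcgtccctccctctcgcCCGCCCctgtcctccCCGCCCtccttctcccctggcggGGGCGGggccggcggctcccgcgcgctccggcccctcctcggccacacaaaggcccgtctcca
Sema7a, chr9:57939862-57940161, plus strand: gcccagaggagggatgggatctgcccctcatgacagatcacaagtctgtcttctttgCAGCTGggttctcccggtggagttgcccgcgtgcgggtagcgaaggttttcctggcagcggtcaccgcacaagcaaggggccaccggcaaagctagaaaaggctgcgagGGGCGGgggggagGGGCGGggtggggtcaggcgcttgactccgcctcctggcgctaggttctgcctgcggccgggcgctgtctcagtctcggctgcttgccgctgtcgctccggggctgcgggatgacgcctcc
The Efnb1 window held a CCAAT box on the opposite strand that starts at position -10 and no GC box. The windows of Plxnb2 held 3 and 4 GC boxes, and that of Sema7a held 2 GC boxes and 1 E2A match. No motif other than these was found in the 4 windows, and the matches do not overlap. Over all 32851 windows, 35.7% held a GC box, 37.4% a CCAAT box and 16.3% an E2A match, against 13, 6 and 2 of the 17 windows of the 10 members. PU.1, octamer and E2F matches were in 0 of the 17, and in 3.2%, 1.74% and 1.07% of all windows. The E-box was in 1 of 17 and 7.15% of all, and the TATA box in 1 of 17 and 13.6%. Windows of 1 gene can overlap, and a match is a description of the letters.

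The relatives of these genes were mostly dim. Of 43 other ephrins, Eph receptors, semaphorins, plexins and neuropilins, 42 were measured and 35 of them were below the level on all 4 arrays. This held for 5 of 6 other ephrins, all 11 measured Eph receptors, 15 of 16 semaphorins and 4 of 9 plexins and neuropilins. Efna2 (naive PP) and Sema6b (naive pLN) were the ephrin and the semaphorin above the level, on 1 array each. The Sema4c transcript, whose protein binds plexin-B2, was among the semaphorins below the level. Only 2 relatives were tested, and both were called. Plxnc1, the plexin that binds Sema7a, was higher in GC cells (1968 against 857 in pLN, 1013 against 539 in PP, 1.04 ± 0.39, limma adjusted p = 0.0343). Its call was lost without the block (limma adjusted p = 0.0959), under the 3 other scalings, with no filter, and with GC pLN (0.56), GC PP (1.51) or naive PP (0.71) left out. Nrp1, a co-receptor of class 3 semaphorins, was at least 3.35-fold lower in GC cells, with 43.7 and 32.4 on the GC arrays, below the level, and 389 and 343 on the naive arrays (-2.79 ± 0.49, limma adjusted p = 0.000273). Nrp1 entered the test through the naive arrays alone, which favours a lower call.

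Other cell-surface partners of semaphorins gave 1 call in each direction among 7 measured and 4 tested. Timd2, which encodes the Sema4a partner Tim-2, read 749 and 993 on the GC arrays of pLN and PP and 86.9 and 42.7 on the naive arrays, both below the level. GC cells exceeded naive cells at least 6.19-fold (3.47 ± 0.47, limma adjusted p = 3.23e-05), and its 2 probe sets gave 3.23 and 3.47. Timd2 entered the test through the GC arrays alone, which favours a higher call. Cd72, the B cell receptor of Sema4d and an inhibitor of antigen receptor signalling, was 3.79-fold lower in GC cells, with readings of 7652 in GC and 18421 in naive cells of pLN, and 6498 and 38854 in PP (-1.92 ± 0.51, limma adjusted p = 0.00586). Without GC pLN or GC PP the Cd72 fold was -2.04 and -1.80 and was not called (limma adjusted p = 0.109 and 0.165), and it was -0.93 after quantile normalization and -0.77 after cyclic loess, both called. Itgb1, the beta-1 integrin subunit, differed by 0.74 ± 0.47, and Ptprc, which associates with Sema4d, by -0.20 ± 0.39.

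Intracellular effectors were called in both directions, 5 of 15 plexin effectors and 8 of 16 Eph and ephrin effectors, where 49.7% of all genes were. Of 18 plexin effectors 15 were tested, 3 were higher, 2 lower and 10 not called, with a median log2 fold of 0.37. Rras2, a Ras-family GTPase of the kind plexins inactivate, read 3968 and 4045 on the GC arrays of pLN and PP and 804 and 209 on the naive arrays (3.22 ± 0.44, limma adjusted p = 3.3e-05), at least 9.67-fold higher with naive PP at its level. Rras2 entered the test through the GC arrays alone, which favours a higher call. Its relative Rras went the other way, 5.84-fold lower in GC cells (281 and 243 against 1259 and 1855). Fyn, a Src-family kinase, was 3.80-fold higher. Arhgef12, a RhoA exchange factor bound by class B plexins, was 2.35-fold higher (1.20 ± 0.43, limma adjusted p = 0.028). The Arhgef12 call was lost under quantile normalization (0.75) and cyclic loess (0.80), without the block, and without GC pLN (1.67), GC PP (0.74) or naive PP (1.01). Mical1, an oxidoreductase that acts on actin below plexins, was 3.60-fold lower, and was not called without GC pLN (-1.76, limma adjusted p = 0.121) or GC PP (-1.93, limma adjusted p = 0.0846). Its fold was -1.17 after quantile normalization and -0.96 after cyclic loess, both called.

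Of 22 measured Eph and ephrin effectors 16 were tested, 5 were higher, 3 lower and 8 not called, with a median of 0.03. Vav2, an exchange factor used by Eph receptors, read 4107 and 4632 on the GC arrays of pLN and PP and 769 and 275 on the naive arrays (3.19 ± 0.42, 9.48-fold higher). With the mean of all its probe sets the log2 fold of Vav2 was 1.04, and still called. Nck2, an adaptor that binds the tail of B ephrins, was at least 4.23-fold higher (2.42 ± 0.42, limma adjusted p = 0.000232), with no call without GC pLN (1.92, limma adjusted p = 0.0683). Sdcbp, the PDZ protein syntenin that binds B ephrins, was 3.44-fold higher, and was not called without GC pLN (1.46, limma adjusted p = 0.107). Crkl was at least 1.68-fold higher (1.21 ± 0.46, limma adjusted p = 0.038). Its call was lost under all 3 other scalings, with no filter, with dim signals at the level, without the block, and without GC pLN (0.98), GC PP (1.45) or naive PP (0.81). Tns3, a tensin of cell adhesions, was 12.97-fold lower in GC cells, at 229 and 217 against 2334 and 3587, but its log2 fold went from -3.60 to -1.50 with the mean of all its probe sets, and was still called. Itsn1, an endocytic scaffold that works with EphB2, was 5.95-fold lower in GC cells by the probe set that stood for it, but its 3 probe sets above the level ranged from -2.54 to 1.59. Ptpn11, a phosphatase, was 2.83-fold lower, with folds of -1.62 without GC pLN and -1.38 without GC PP that were not called (limma adjusted p = 0.0865 and 0.163). With the mean of all its probe sets the fold of Ptpn11 was -0.41 and was not called (limma adjusted p = 0.31). The fifth gene called higher was Adam10, a protease that sheds ephrins, at 2.15-fold (1.09 ± 0.38, limma adjusted p = 0.0254). It was not called without GC pLN (1.06, limma adjusted p = 0.236) or GC PP (1.13, limma adjusted p = 0.215), and its fold was 1.80 with the mean of all its probe sets. Nck2, Crkl, Itsn1 and Nrp1 were too dim to be tested by that mean. Nck2 and Crkl had entered the main test through the GC arrays alone, which favours a higher call. Leaving out naive PP, folds fell to 2.29 for Rras2, 2.48 for Vav2, 1.73 for Nck2, 1.30 for Fyn and 1.12 for Sdcbp, and leaving out naive pLN they were 4.15, 3.90, 3.12, 2.49 and 2.40, all called.

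**Figure D4:**
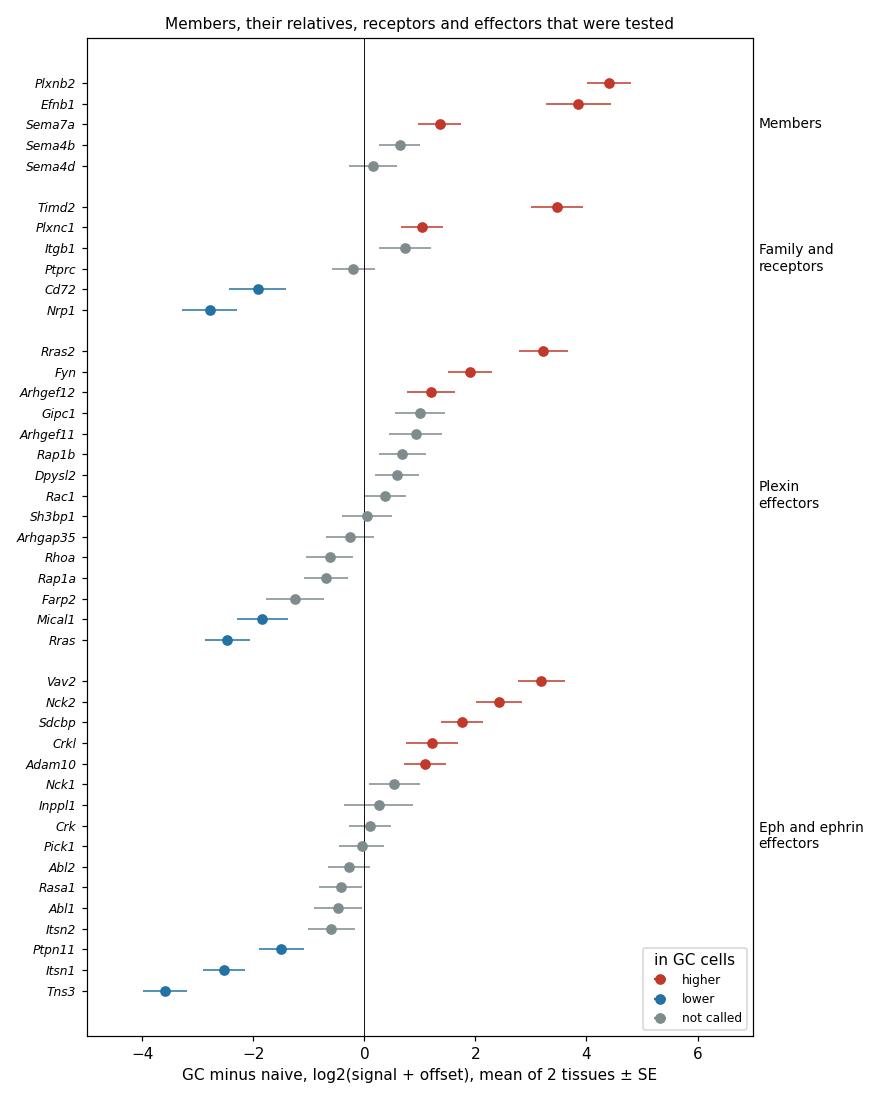
GC minus naive difference on the log2(signal + offset) scale (x axis, mean of the 2 tissues, bars ± moderated SE) for the tested members, relatives and receptors, plexin effectors and Eph and ephrin effectors; red was called higher in GC cells, blue lower, grey not called. Plxnb2, Efnb1, Timd2, Rras2 and Vav2 have the highest values, and Tns3, Nrp1, Itsn1 and Rras the lowest.

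Within each tissue the members were described by a 2-fold rule, with no test since each group is 1 array. In pLN, 3 of the 6 members above the level on the brighter array were at least 2-fold higher in GC cells (Efnb1, Plxnb2 and Sema7a), where 20.4% of 10019 genes were, and Sema4a was lower, as were 24.5% of genes. The Sema4a difference was under 2-fold by its second probe set (-0.81) and with the dim GC signal at the level (-0.98). In PP the same 3 of 5 were higher, where 32.1% of 9382 genes were, and 0 were lower, against 27.6%. The comparisons share the 3' bias of their naive arrays.

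PP and pLN differed little for the members in GC cells. None of the 5 members above the level was 2-fold higher or lower in GC PP than in GC pLN, where 3.57% of 9393 genes were higher and 1.68% lower. The log2 differences ran from 0.06 for Efnb1 and 0.09 for Sema4d to 0.28 for Sema7a, 0.43 for Sema4b and 0.48 for Plxnb2. In the deposited scaling they were -0.20 for Efnb1, -0.18 for Sema4d, 0.01 for Sema7a, 0.16 for Sema4b and 0.22 for Plxnb2, so the direction of the first 2 turned. In naive cells, Efnb1 was lower in PP by its brightest probe set (-2.95), where 16.3% of 9083 genes were lower and 7.93% higher. That difference rests on a naive PP signal of 6.58 against a level of 213. With dim signals at the level it was 0.30, and the other 2 probe sets differed by 1.36 and 1.36 the other way, all below the level. Sema7a was higher in naive PP than in naive pLN by 0.90, Sema4d by 0.59 and Sema4b by 0.43, and the second Sema4d probe set by 1.55. The 2 naive arrays also differed in the Gapdh 3' to 5' ratio, at 96.4 in PP and 18.7 in pLN. The part of that bias in these differences was not tested. The order of the 4 arrays was GC PP, GC pLN, naive PP and naive pLN for Sema7a and Sema4b, from the highest down. For Plxnb2 the naive arrays have no order, since the naive PP reading was below its level. With 1 array a group there is no spread for neighbours in that order.

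The genes whose centred log2 signals over the 4 arrays lay nearest to Plxnb2 (Euclidean distance) were Cdc25c, a phosphatase of mitotic entry (0.111), Sgo2a, which protects centromeric cohesion (0.264), and Ncapg2, a condensin subunit (0.266). Cdc25c read 1614 and 2499 on the GC arrays of pLN and PP and 73.5 and 89.9 on the naive arrays. Both naive readings of Cdc25c and of Sgo2a (14.5 and 25.6) were below the level, as was that of Plxnb2 in PP. For Sema7a, the called member with the lowest fold, the nearest were Acot7 (0.095), Rdh10 (0.133) and Pfkfb2 (0.158). The naive readings of Pfkfb2 (31.2 and 63.5) were below the level. With 4 arrays such nearness is easily reached: 13 genes lay within 0.5 of Plxnb2 and 89 within 0.5 of Sema7a.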

How the data were processed

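Biotinylated cRNA of 4 RNA pools was hybridised to 1 Affymetrix array each, per the labels' protocols, and GCOS is named in the submitters' processing notes, with no version. The authors deposited linear intensities whose median is 1 on every array. Which algorithm and target scaling made them is not given in the sources used here. Signals were rescaled to a trimmed mean of 500 (2% off each end). A background list (108 probe sets of 62 genes of other tissues) gave the detection level and, as its median, the offset of 17.7 added before log2. Log2 folds understate changes of dim genes. "At least" folds set dim signals at the level of their array. Where a gene had several probe sets, the one brightest on average over the 4 arrays (log2) stood for it. The GC-naive contrast was fitted with limma 3.58.1 (R 4.3.3), tissue as a block and an intensity trend, with 1 residual and 15.8 prior degrees of freedom and Benjamini-Hochberg adjustment, and was tested on simulated data. Its p-values rest on disagreement between the 2 tissues, not between mice. Most of the weight lies on the prior, which pools that disagreement over genes of like intensity, and little on the gene's own. Of 213 listed genes 202 were measured. The rule named all members, Fas, Ptprc, markers above the level, up to 4 called genes a list and direction, and the 3 genes nearest to the highest and lowest called member. Of the markers above the level Pecam1, Apoe, Jchain, Mzb1, Cd3d, Cd3e, Cd3g, Cd4, Cd5, Cd8a, Il7r, Lat, Thy1, Tox2 and Cxcr5 are given. Adam10, Sema4c, Itgb1, Efna2, Sema6b, Cdh5, Kdr, Tek and Tie1 were named outside the rule, after their values were seen. Members and lists were chosen with earlier results of these data known. Alternatives covered scaling, offset, filter, level, probe set, block, trend and each array left out.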

Additional observations from a re-analysis of the deposited data

Results flagged for a closer look

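The GC-naive log2 fold of Sema4d was 0.401 in pLN and -0.0956 in PP by its brightest probe set. It was singled out because the 2 tissues pointed in opposite directions. The difference was not tested, since each group is 1 array, and both values are smaller than the SE of 0.43 of the mean fold. No other member above the level in both tissues changed direction between them.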

How the results depend on the processing

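The calls of Plxnb2 and Efnb1 held under all 17 other settings in which they were tested, with folds of 4.0 to 4.64 and 2.23 to 4.74. Neither was tested when all 4 arrays had to be above the level, where 1 member was called higher. Sema4d was called higher after quantile normalization (0.95) and cyclic loess (0.92), and turned to -0.36 with the mean of all probe sets. With no filter 1 member (Sema4a) was called lower, and 11 other pathway genes were called lower against 7. Of all genes, 2457 of 18194 were called lower in that setting, against 2245 of 9230. The Efnb1 difference between naive PP and naive pLN turned from -2.95 to 0.30 with dim signals at the level. Leaving out each array in turn, which needed a fit with no block, gave folds of 0.42 to 0.85 for Sema4b, -0.14 to 0.45 for Sema4d and 0.90 to 1.80 for Sema7a. It gave 2 to 5 members called higher and 0 to 1 lower, and 4 to 13 other pathway genes called higher and 4 to 13 lower. Without the tissue block, which pairs the arrays of a tissue, the same 3 members were called. Over all genes, 2341 were called higher and 2245 lower, against 1269 and 2164 with all 4 arrays above the level. Both counts fell when either GC array was left out and rose when either naive array was left out. The median fold of all genes shifted by -0.14 with the deposited scaling and by -0.17 with quantile normalization.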
